A study of Mus musculus with 2 samples.

Results

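The expression of 44 genes that run mitosis was examined in testes of 9-day-old mice, from the kinases that start chromosome condensation to the proteins that pinch the daughter cells apart. The members were chosen by gene symbol, and all 44 were found among the 39695 gene entries of the deposited tables through GENCODE M21 on GRCm38. All are annotated as protein-coding. The study made 1 RNA-seq library from whole testes of control males and 1 from *Bcas2*F/-;Vasa-Cre males, labelled Bcas2F/-;V-cre. Controls were *Bcas2*F/- males without Cre, which hold 1 floxed and 1 deleted copy, so the deleted copy was common to both groups. In the mutant, the Cre transgene is driven by *Vasa* and removes the floxed allele in germ cells, while the somatic cells of the testis keep it. *Bcas2* encodes a subunit of the Prp19 splicing complex. The labels give C57BL/6 as the strain, whereas the methods describe a mixed 129/C57BL/6 background, and the number of mice behind each library is not given in the sources used here. Because each genotype has 1 library, the spread between animals is unknown and p-values were not computed. In what follows, the mutant is *Bcas2*F/-;Vasa-Cre.

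Mitosis is driven by CDK1 bound to cyclins, held back until every kinetochore is attached to the spindle, and ended when the anaphase-promoting complex (APC/C) marks securin and cyclins for destruction. Most of these genes are transcribed late in the cell cycle and switched off in resting cells, so their RNA level in a tissue is often read as a sign of dividing cells. In the testis at this age both spermatogonia and immature Sertoli cells divide, and the first germ cells approach meiosis. Many late cell cycle promoters carry a CCAAT box, which NF-Y binds, and a cell cycle genes homology region (CHR), which complexes built on MuvB bind.

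The promoters were examined first, because the genes of this program are known to share promoter elements. RefSeq promoter windows on GRCm38.p6, from 250 bases before to 50 bases after the annotated start, were found for 36 of the 44 members. The CHR was searched as TTTGAA or TTCGAA and the CCAAT box as CCAAT, both on either strand. TTCGAA is its own reverse complement and was counted a single time. A CHR match was present in 26 of the 36 members (72.2%), compared with 21.7% of the 27025 genes in the promoter table and 15.9% of the genes expressed here that were in it. CCAAT was present in 27 of 36 (75%), compared with 41.1% of all genes. Both stood together in 24 members (66.7%), compared with 8.61% of all genes. Of the 36 CHR matches in the members, 25 (69.4%) had their centre within 50 bases of the start, compared with 25.7% of the matches in all genes. The 59 CCAAT matches lay farther out, with a median position of −66 bases from the start, against −7 for the CHR. Over all genes these medians were −88 and −122. Within 50 bases of the start lay 35.6% of the CCAAT matches in the members and 29.3% of those in all genes. These matches are descriptions of letters, not of bound sites.

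**Figure D1:**
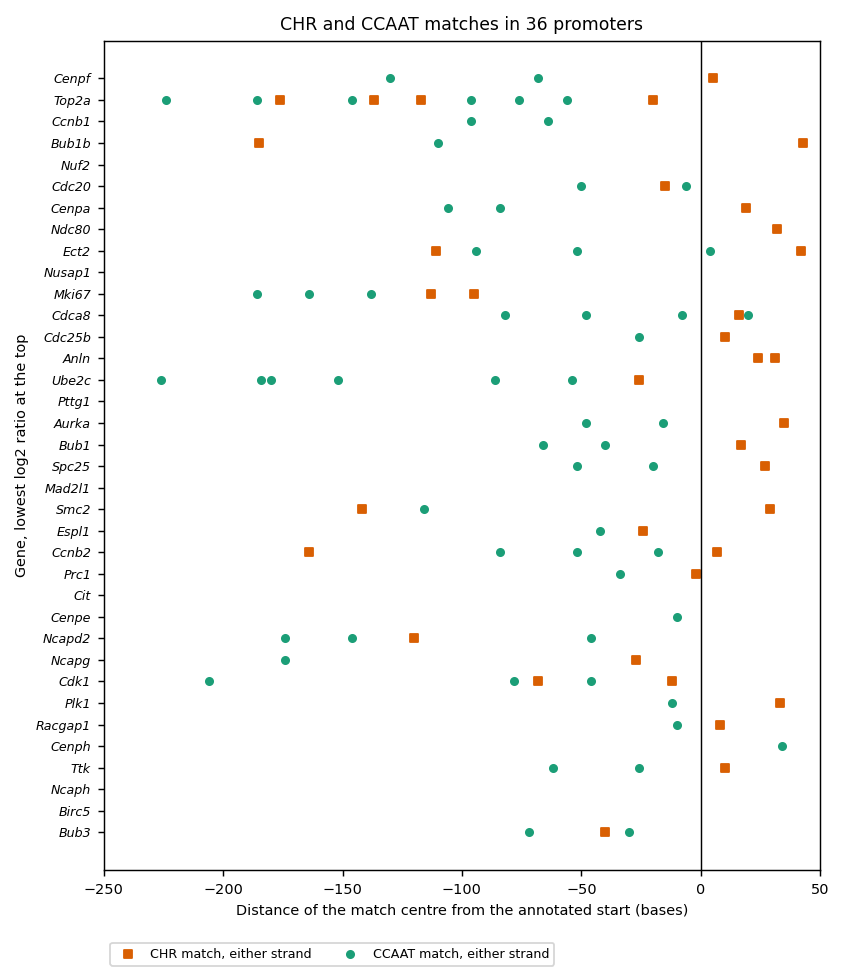
Position of CHR (squares) and CCAAT (circles) matches in the 36 member promoters, in bases from the annotated start, 1 gene per row with the lowest log2 ratio at the top. CHR matches gather near the start, and genes with and without matches are found at the top and at the bottom of the order.

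The windows of the 3 members with the lowest ratios in the promoter table (*Cenpf*, *Top2a* and *Ccnb1*) and of the 3 nearest to 0 (*Bub3*, *Birc5* and *Ncaph*) are printed to show promoters from both ends of the range. Each runs from 120 bases before to 30 bases after the start, 5′ to 3′ on the gene's strand, with CHR and CCAAT letters of either strand in capitals.
Cenpf, chr1:189688057-189688206, minus strand: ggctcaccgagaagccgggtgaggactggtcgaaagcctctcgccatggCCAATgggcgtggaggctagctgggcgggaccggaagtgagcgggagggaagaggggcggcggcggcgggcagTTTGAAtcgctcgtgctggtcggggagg
Top2a, chr11:99024160-99024309, minus strand: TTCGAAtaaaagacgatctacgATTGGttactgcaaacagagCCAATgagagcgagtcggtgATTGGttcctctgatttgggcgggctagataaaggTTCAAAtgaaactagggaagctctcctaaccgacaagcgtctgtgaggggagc
Ccnb1, chr13:100786457-100786606, minus strand: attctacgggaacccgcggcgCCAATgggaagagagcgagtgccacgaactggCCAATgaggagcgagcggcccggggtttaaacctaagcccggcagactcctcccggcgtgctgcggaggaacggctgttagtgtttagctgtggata
Bub3, chr7:131560250-131560399, plus strand: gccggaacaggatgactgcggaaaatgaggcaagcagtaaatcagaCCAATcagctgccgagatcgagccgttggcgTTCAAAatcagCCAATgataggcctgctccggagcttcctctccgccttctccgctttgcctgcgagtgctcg
Birc5, chr11:117849117-117849266, plus strand: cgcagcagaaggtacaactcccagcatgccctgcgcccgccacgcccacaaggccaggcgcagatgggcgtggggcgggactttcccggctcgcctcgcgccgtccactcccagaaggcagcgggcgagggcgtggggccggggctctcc
Ncaph, chr2:127133925-127134074, minus strand: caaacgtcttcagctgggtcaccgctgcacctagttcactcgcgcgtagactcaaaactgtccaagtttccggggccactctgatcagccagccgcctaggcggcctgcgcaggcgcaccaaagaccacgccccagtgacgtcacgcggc

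*Cenpf* held 1 CHR and 1 CCAAT match in this stretch and *Top2a* held 2 and 3. *Ccnb1*, among the lowest members, held 2 CCAAT matches and no CHR match. At the other end, *Bub3* held 1 CHR and 2 CCAAT matches, whereas *Birc5* and *Ncaph* held neither. The 26 members with a CHR match had a median log2 ratio of −0.20 and the 10 without had −0.15. The first ranged from −0.54 to 0.01 and the second from −0.43 to 0.01, and the 8 members with no promoter entry include *Cdc25c*, *Smc4* and *Ccna2*.

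*Bcas2* itself was examined as a check of the labels. It was at 39.5 RPKM in control testes and at 25.7 RPKM in the mutant (−0.60). Whole testes also hold somatic cells, in which the floxed allele stays intact. RPKM is the number of reads per kilobase of gene, scaled to the reads of the whole library. All ratios are log2 of mutant over control, with 1 added to each RPKM, which slightly understates differences of genes with low RPKM. The numbers in parentheses after a ratio are its 95% Clopper-Pearson interval, computed for the RPKM ratio without the added 1 from recovered reads. These intervals cover counting error only, and neither the spread between animals nor that between library preparations.

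The mitotic genes had lower RPKM in *Bcas2*F/-;Vasa-Cre than in control testes almost without exception, by small amounts. Of the 44 members, 41 had a ratio below 0 (93.2%), whereas 46.3% of the 14831 expressed genes (those averaging 1 RPKM or more) did. Under other scalings 40 to 44 members were below 0, as *Wee1*, *Bub3*, *Birc5* and *Tpx2* lay so near 0 that their sign changed. The median log2 ratio was −0.21 for the members and 0.02 for all genes, so the median member was 13.3% lower. In whole testes, fewer dividing cells and less RNA per cell cannot be told apart. The lowest member was *Cenpf* at −0.54, and the highest were *Birc5*, *Wee1* and *Bub3*, each at 0.01. No member was more than 1.5-fold lower or higher, thresholds passed by 1.69% and 1.57% of all genes. More than 1.2-fold lower were 13 members (29.5%), compared with 9.37% of all genes, and 0 members were more than 1.2-fold higher, compared with 8.91%. The 13 were *Cenpf*, *Top2a*, *Cdc25c*, *Ccnb1*, *Bub1b*, *Smc4*, *Ccna2*, *Nuf2*, *Cdc20*, *Cenpa*, *Ndc80*, *Ect2* and *Nusap1*, which come from 7 of the 8 role groups. The counting interval lay below 0 for 29 members, held 0 for 15 and lay above 0 for none.

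**Figure D2:**
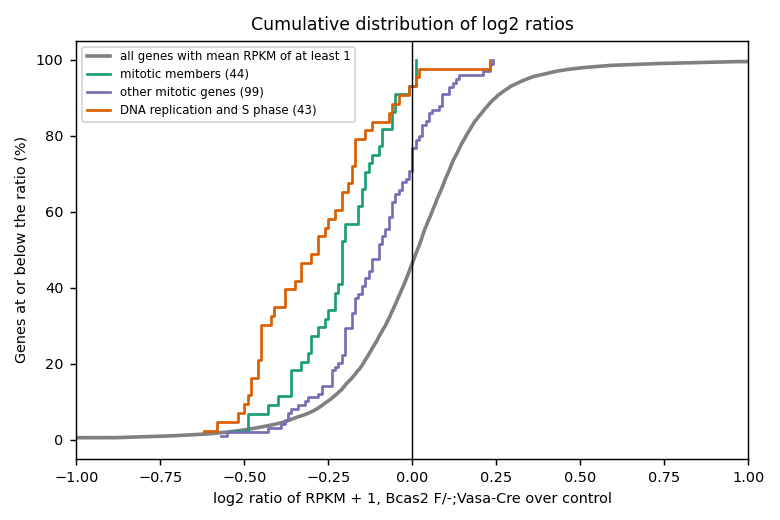
Cumulative share of genes (%) against the log2 ratio of RPKM + 1, for all 14831 expressed genes (grey), the 44 mitotic members, 99 other mitotic genes and 43 DNA replication and S phase genes. The member curve lies left of the grey curve and ends at 0.01, with 41 of 44 members below 0.

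The members were well covered. All had a mean RPKM above 1, from 7.88 for *Cit* to 177 for *Top2a*. Estimated reads ran from 294 to 6993 in the control library and from 196 to 4821 in the mutant. Their ratios showed little relation to level. The 22 members with the higher mean RPKM had a median log2 ratio of −0.20 and the 22 with the lower had −0.21, with a Spearman rho of −0.25 between ratio and level across the 44 genes, which share both libraries and are not independent replicates. Among the 10663 genes averaging 5 RPKM or more, a range that holds every member, 47.1% were below 0. The 1.2-fold threshold was passed downward by 7.27% and upward by 5.14% of them, and the 1.5-fold threshold by 0.975% and 0.431%.

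**Figure D3:**
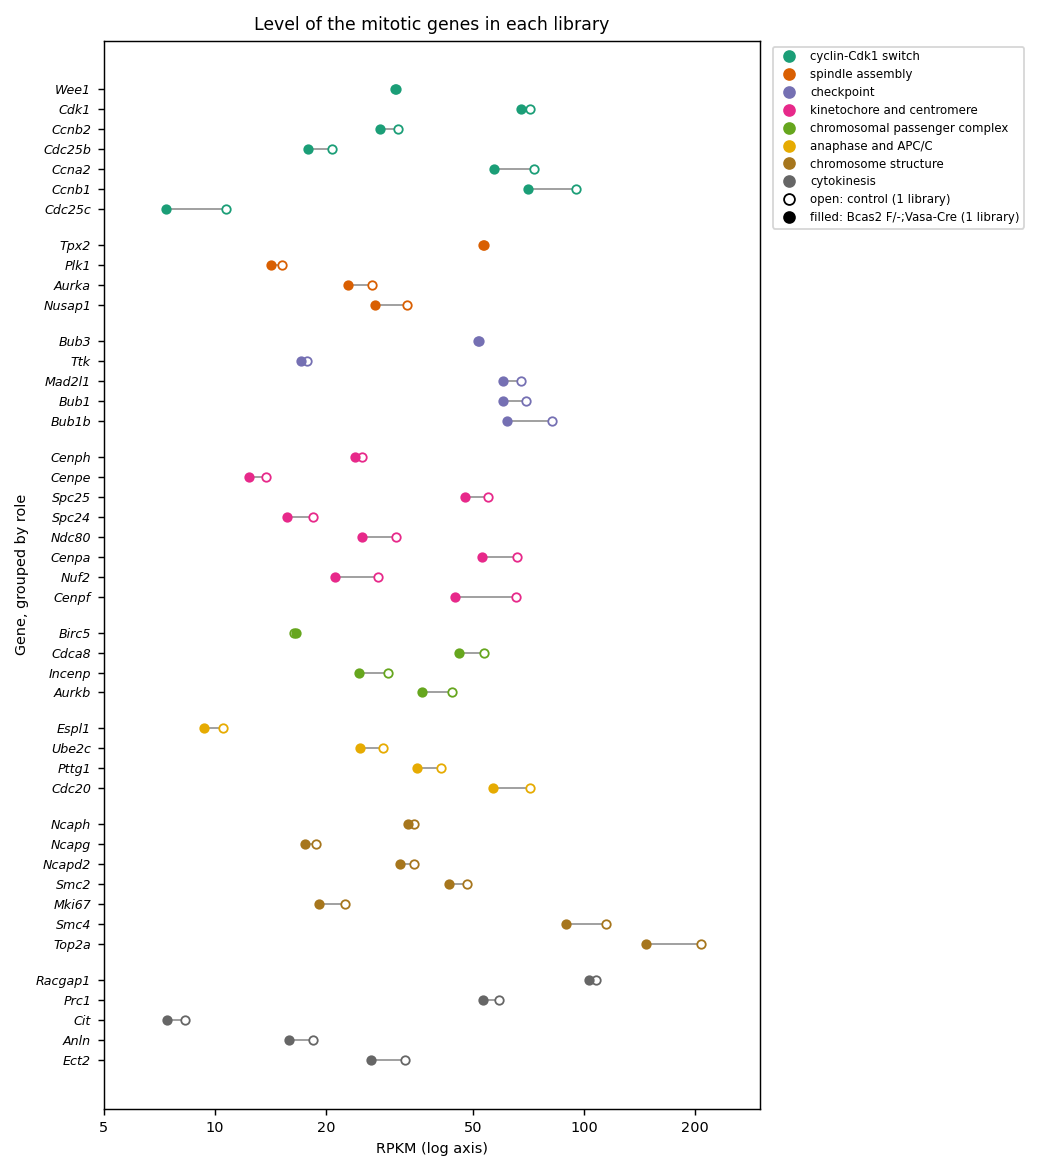
RPKM (log axis) of the 44 members in the control library (open circles) and the *Bcas2*F/-;Vasa-Cre library (filled circles), 1 gene per row, coloured by role group. The filled circle lies left of the open circle for 41 genes, with the widest gap for *Cenpf* and nearly none for *Wee1*, *Tpx2*, *Bub3* and *Birc5*.

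The cyclin–CDK1 switch comprised 7 members with a median log2 ratio of −0.21. *Cdk1*, the kinase itself, had an RPKM of 71.5 in control testes and 67.3 in the mutant, with a log2 ratio of −0.09 (−0.20 to 0.02). Its main partner cyclin B1 differed more, since *Ccnb1* was at 95.3 and 70.6 RPKM, with a log2 ratio of −0.43 (−0.52 to −0.35). *Ccna2*, which encodes the cyclin A that acts in S phase and before mitosis, was at 73.4 and 57 RPKM, with a log2 ratio of −0.36 (−0.45 to −0.28). The second B-type cyclin stood between these and *Cdk1*. *Ccnb2* was at 31.3 and 28 RPKM, with a log2 ratio of −0.15 (−0.30 to −0.02). The CDC25 phosphatases remove the inhibitory phosphates from CDK1. *Cdc25c* was at 10.7 and 7.36 RPKM, with a log2 ratio of −0.49 (−0.81 to −0.28), from only 294 and 196 reads. The values of *Cdc25b* were 20.7 and 17.9 RPKM, with a log2 ratio of −0.21 (−0.40 to −0.03). WEE1 is the kinase that adds an inhibitory phosphate, and *Wee1* was at 30.8 and 31 RPKM, with a log2 ratio of 0.01 (−0.08 to 0.10). Outside the list, *Pkmyt1*, which encodes another inhibitory kinase of CDK1, was at −0.10 (−0.42 to 0.17), and the third phosphatase gene, *Cdc25a*, at −0.17 (−0.33 to −0.03).

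Among the 4 members that build the spindle, the median was −0.15, or −0.11 with the reads of a copy of *Plk1* added. *Plk1*, a kinase of centrosomes, kinetochores and the midbody, had an RPKM of 15.2 in control testes and 14.2 in the mutant, with a log2 ratio of −0.09 (−0.32 to 0.13), which goes to 0.04 with the reads of its copy added. *Aurka*, the centrosomal Aurora kinase, was at 26.7 and 23 RPKM, with a log2 ratio of −0.21 (−0.37 to −0.06). TPX2 activates Aurora A on spindle microtubules. *Tpx2* differed less than its kinase, at 53.6 and 53.1 RPKM, with a log2 ratio of −0.01 (−0.09 to 0.07). *Nusap1*, which encodes a microtubule-bundling protein, was the lowest of the group, at 33.1 and 27.1 RPKM, with a log2 ratio of −0.28 (−0.41 to −0.16).

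The 5 checkpoint members, which hold anaphase until every kinetochore is attached, had a median of −0.16. BUBR1, the product of *Bub1b*, joins MAD2 and BUB3 in the complex that blocks CDC20. *Bub1b* was at 81.9 and 62 RPKM, with a log2 ratio of −0.40 (−0.50 to −0.31). *Mad2l1*, which encodes MAD2, was at 67.5 and 60.5 RPKM, with a log2 ratio of −0.16 (−0.22 to −0.09). *Bub3* was at 51.6 and 51.8 RPKM, with a log2 ratio of 0.01 (−0.08 to 0.09). The partners of this inhibitory complex thus differed in ratio, with *Bub1b* lowest and *Bub3* level. The kinetochore kinase BUB1 recruits them, and *Bub1* was at 69.7 and 60.5 RPKM, with a log2 ratio of −0.20 (−0.31 to −0.10). *Ttk*, the MPS1 kinase that starts the signal, was at 17.8 and 17.1 RPKM, with a log2 ratio of −0.05 (−0.21 to 0.10).

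All 8 kinetochore and centromere members were lower in the mutant, with a median of −0.26, or −0.21 when the reads of similar copies of *Ndc80* are added. *Cenpf*, which encodes a large coiled-coil protein of the outer kinetochore, had an RPKM of 65.5 in control testes and 44.8 in the mutant, with a log2 ratio of −0.54 (−0.62 to −0.47), so it was 31.1% lower on this scale. *Cenpa*, the histone H3 variant that marks the centromere, was at 65.8 and 52.8 RPKM, with a log2 ratio of −0.31 (−0.44 to −0.20). The NDC80 complex binds microtubules and has 4 subunits, each in the list. *Ndc80* was at 30.9 and 25 RPKM, with a log2 ratio of −0.30 (−0.42 to −0.19), which goes to −0.08 when the reads of its similar copies are added. *Nuf2*, its partner at the microtubule-binding end, was at 27.6 and 21.2 RPKM, with a log2 ratio of −0.36 (−0.52 to −0.24). SPC24 and SPC25 anchor the complex to the kinetochore. *Spc24* was at 18.5 and 15.7 RPKM, with a log2 ratio of −0.23 (−0.43 to −0.05). *Spc25* was at 54.8 and 47.6 RPKM, with a log2 ratio of −0.20 (−0.33 to −0.08). The remaining members had intervals that held 0. The kinesin gene *Cenpe* was at 13.8 and 12.4 RPKM, with a log2 ratio of −0.13 (−0.32 to 0.03). *Cenph*, of the inner kinetochore, was at 25 and 23.9 RPKM, with a log2 ratio of −0.06 (−0.25 to 0.12).

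The chromosomal passenger complex corrects faulty attachments and later works at the midzone. Its kinase gene *Aurkb* was at 43.9 and 36.4 RPKM, with a log2 ratio of −0.26 (−0.42 to −0.12). The scaffold gene *Incenp* was at 29.4 and 24.6 RPKM, with a log2 ratio of −0.25 (−0.41 to −0.11). *Cdca8*, which encodes borealin, was at 53.5 and 45.7 RPKM, with a log2 ratio of −0.22 (−0.34 to −0.12). These 3 were close to each other, whereas *Birc5*, which encodes survivin, was at 16.4 and 16.6 RPKM, with a log2 ratio of 0.01 (−0.14 to 0.17).

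Each of the 4 members of the anaphase group was lower, with a median of −0.21. *Cdc20*, the activator of the APC/C in mitosis, had an RPKM of 71.6 in control testes and 56.7 in the mutant, with a log2 ratio of −0.33 (−0.45 to −0.22). *Ube2c*, the ubiquitin-conjugating enzyme of the APC/C, was at 28.6 and 24.7 RPKM, with a log2 ratio of −0.21 (−0.36 to −0.07). Securin and separase form an inhibitor and protease pair that releases sister chromatids. *Pttg1*, the securin gene, was at 40.9 and 35.3 RPKM, with a log2 ratio of −0.21 (−0.38 to −0.04). *Espl1*, the separase gene, was at 10.5 and 9.34 RPKM, with a log2 ratio of −0.15 (−0.37 to 0.04).

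Chromosome structure held the most abundant member. *Top2a*, which encodes the topoisomerase that untangles sister chromatids, had an RPKM of 207 in control testes and 147 in the mutant, with a log2 ratio of −0.49 (−0.55 to −0.44). The SMC proteins form the core shared by both condensins. *Smc4* was at 115 and 89.2 RPKM, with a log2 ratio of −0.36 (−0.44 to −0.29). *Smc2* was at 48.2 and 43.2 RPKM, with a log2 ratio of −0.16 (−0.24 to −0.08). The 3 subunits specific to condensin I lay nearer to 0, and the interval of each held 0. They were *Ncapd2* at 34.6 and 31.8 RPKM, with a log2 ratio of −0.12 (−0.28 to 0.04), *Ncapg* at 18.8 and 17.5 RPKM, with a log2 ratio of −0.10 (−0.24 to 0.03), and *Ncaph* at 34.6 and 33.4 RPKM, with a log2 ratio of −0.05 (−0.18 to 0.09). *Mki67*, the proliferation marker that coats mitotic chromosomes, was at 22.5 RPKM in control testes, with 2387 reads there and 1964 in the mutant. Its log2 ratio of −0.23 (−0.33 to −0.15) lay near the median of all members. In undifferentiated spermatogonia at a later age, the paper found no significant difference between the genotypes in staining of its protein.

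The 5 cytokinesis members had a median of −0.14. *Ect2*, which encodes the exchange factor that activates RhoA at the cell equator, was the lowest, at 32.8 and 26.5 RPKM, with a log2 ratio of −0.30 (−0.43 to −0.19). Its activator RACGAP1 belongs to centralspindlin, and *Racgap1* was at 108 and 103 RPKM, with a log2 ratio of −0.06 (−0.14 to 0.01). *Anln*, the gene of the ring scaffold anillin, was at 18.5 and 15.9 RPKM, with a log2 ratio of −0.21 (−0.35 to −0.08). *Prc1*, the gene of the midzone cross-linker, was at 58.9 and 53.3 RPKM, with a log2 ratio of −0.14 (−0.23 to −0.06). *Cit*, the gene of citron kinase and the weakest member by RPKM, was at 8.32 and 7.44 RPKM, with a log2 ratio of −0.14 (−0.34 to 0.02). These values sum all isoforms of a gene and do not resolve splicing. From the same sequencing the paper called an altered splicing event in *Cit*, which was not among the genes it could verify by RT-PCR.

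**Figure D4:**
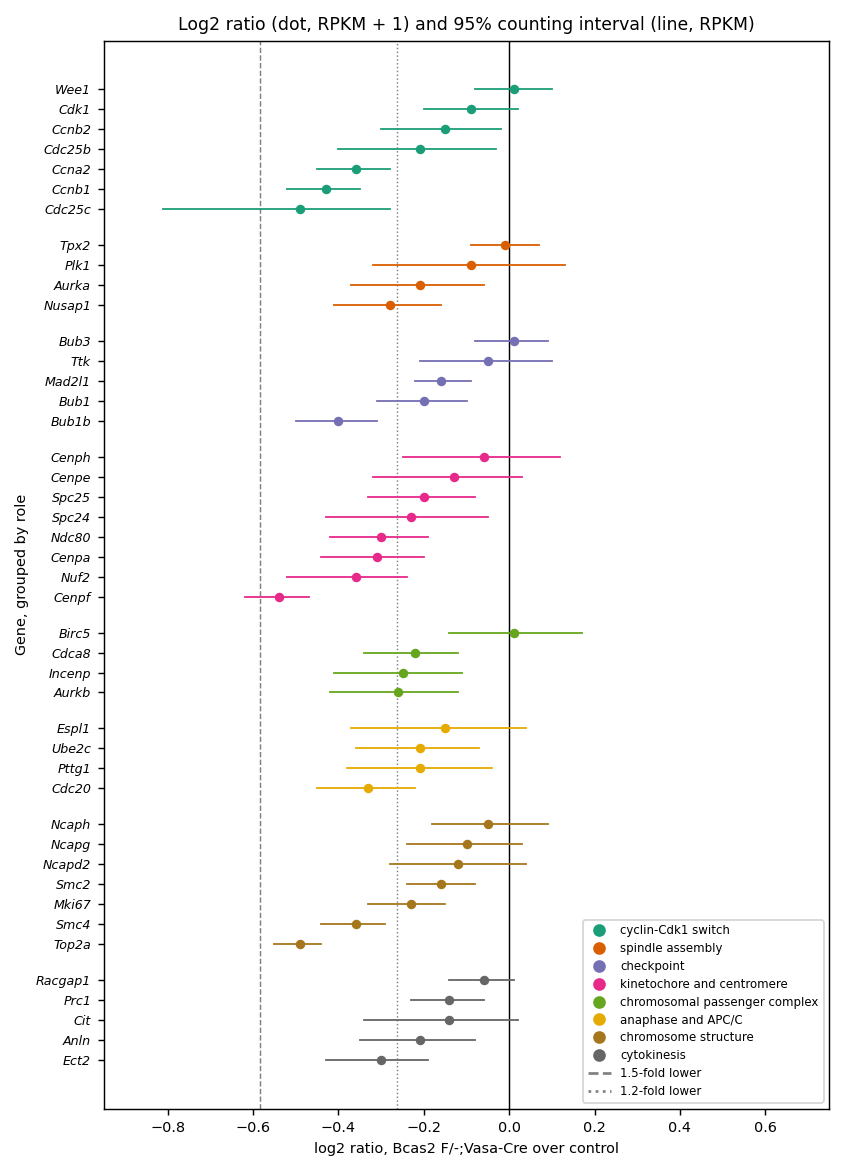
Log2 ratio of RPKM + 1 (dots) with the 95% counting interval of the RPKM ratio (lines) for the 44 members, grouped by role, with dashed and dotted lines at 1.5-fold and 1.2-fold lower. No dot passes the dashed line, 13 pass the dotted line, and the 3 dots right of 0 stand at 0.01.

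Related members were also set against each other, in 8 pairs of paralogs or partners chosen with the ratios known. The difference of their log2 RPKM ratios was computed with a 95% Wald interval of counting error. *Ccnb1* was lower than *Ccnb2* by this measure, with a difference of −0.27 (−0.43 to −0.12). *Cenpf* differed from *Cenpe* by −0.40 (−0.59 to −0.21). The difference of *Smc4* and *Smc2* was −0.21 (−0.31 to −0.10). *Bub1b* and *Bub1* differed by −0.20 (−0.34 to −0.06), and *Cdc25c* and *Cdc25b* by −0.33 (−0.64 to −0.01). These 5 intervals left out 0. The Aurora kinases were not separated, with a difference of *Aurka* and *Aurkb* of 0.05 (−0.16 to 0.27). Within the NDC80 complex, *Nuf2* and *Ndc80* differed by −0.07 (−0.25 to 0.10), but by −0.29 (−0.46 to −0.13) with the reads of the copies added to *Ndc80*. The difference of *Spc24* and *Spc25* was −0.04 (−0.26 to 0.19).

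Some members share sequence with another gene. Copies of at least 300 bases and 90% identity were annotated for 10 members. At least 1 copy was analysed here for 6 of these, and the copies of 2 members held more than 5 reads in a library. The copies of *Bub3*, *Mad2l1*, *Racgap1* and *Ube2c* were not analysed here. Neither were *Gm43812*, a further copy of *Ndc80* (94.0% identical over 580 bases), and *Gm4870*, *Gm8416* and *Gm7483*, further copies of *Ccnb1*. The part of all these copies in the members' values is unknown. *Plk-ps1*, the annotated copy of *Plk1*, was assigned 28 control reads and 58 mutant reads. Added to the 353 and 321 reads of *Plk1*, the log2 ratio of reads per library went from −0.09 to 0.04 (−0.17 to 0.24). For *Ndc80*, the related *Gm1976* and *2700099C18Rik* together had 659 and 780 reads, and adding them moved its log2 ratio from −0.31 to −0.08 (−0.18 to 0.01). The added copies of *Ndc80* are 90.9% and 92.7% identical to it over 944 and 763 bases, and that of *Plk1* is 93.5% identical over 1813 bases. The values of *Plk1* and *Ndc80* are uncertain, with copies added as an alternative chosen after seeing the data, since how reads matching several genes were counted is not given in the sources used here. The sums pool all reads assigned to a member and its analysed copies, so they are not values of the member alone. Exons of 9 members overlap a protein-coding gene on the opposite strand, among them *Ccna2* with *Exosc9* over 510 bases and *Prc1* with *Rccd1* over 911 bases. The RPKM of *Exosc9* was 24.4 and 23.5 and that of *Rccd1* was 12.4 and 14.2. Whether the counting used strand is not given, so reads in these stretches could belong to either gene.

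Other genes of mitosis were examined next. Of 99 further genes, from the regulators of CDK1 to the centriole, 74 were below 0 (74.7%, against 46.3% of all genes) with a median log2 ratio of −0.10. At the 1.2-fold threshold 14 were lower (14.1%, against 9.37%) and 0 higher, and none passed 1.5-fold. The 12 kinesins among them had a median of −0.18, and 10 were below 0. The 11 subunits of the APC/C in the list had a median of 0.00, with 7 below and 4 above 0, and 12 further CENP genes also had a median of 0.00, with 6 below and 6 above 0. The 25 genes above 0 reached 0.24 for *Ska2* (0.05 to 0.45), and *Hmmr* was at 0.23 (0.09 to 0.39). The 5 most abundant of the 99 were all below 0. *Ube2s*, which extends ubiquitin chains on APC/C targets, was at 182 and 172 RPKM, with a log2 ratio of −0.09. *Zwint*, of the outer kinetochore, was at 171 and 168 RPKM, with −0.02. The APC/C subunit gene *Anapc4* was at −0.12 and *Anapc5* at −0.15, as was *Ensa*, an inhibitor of the phosphatase that opposes CDK1. CHR letters were found in 48 of the 85 with a promoter (56.5%, against 21.7% of all genes).

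DNA replication and S phase genes were at least as low as the members. Of 44 listed genes, 43 were expressed at this minimum. Of these, 40 were below 0 (93%, against 46.3% of all genes), with a median log2 ratio of −0.28. More than 1.2-fold lower were 24 of 43 (55.8%), compared with 13 of the 44 members and 9.37% of all genes. *Mcm7*, a subunit of the replicative helicase, was at 188 and 134 RPKM, with a log2 ratio of −0.49. *Pcna*, the sliding clamp, was at 185 and 142 RPKM, with −0.38. *Slbp*, which encodes the binding protein of histone mRNA, was at −0.35. *Gmnn*, the gene of the licensing inhibitor geminin, was at −0.46, and the helicase subunit gene *Mcm6* at −0.21. *E2f2*, the only gene of the list past 1.5-fold, was at 4.43 and 2.52 RPKM, with −0.62. CHR letters were found in 8 of 34 of these promoters (23.5%) and CCAAT in 21 (61.8%). Among all genes with a promoter the shares were 21.7% and 41.1%.

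Markers of the cell types of the testis were read beside the members, over the expressed genes of each list. All 10 germ cell markers were below 0 with a median of −0.32, and their summed RPKM was 707 in control testes and 545 in the mutant. Among them *Dazl* was at 165 and 125 RPKM, *Mael* at 141 and 99.5 RPKM, and *Mov10l1*, past 1.5-fold, at a log2 ratio of −0.60. Differentiating spermatogonia markers had a median of −0.37, with 5 of 7 below 0, *Uchl1* at −0.32, and *Stra8* and *Dmrtb1* past 1.5-fold. The list of undifferentiated spermatogonia was more mixed, with 8 of 13 below 0, a median of −0.17 and *Sall4* and *Nanos3* past 1.5-fold lower. Its most abundant genes were *Lin28a* at −0.35 and *Etv5* at 0.20, and the highest ratio was that of *Nanos2* at 0.49. Meiotic prophase genes were the lowest of the germ cell lists. All 15 that passed were below 0, the median was −0.38, *Syce2* was at −0.40 and *Tex14* at −0.38, and *Smc1b*, *Prdm9* and *Syce3* were past 1.5-fold. With real-time RT-PCR of replicate testes at the same age, the paper found spermatogonial genes at similar mRNA levels in both genotypes. Among these were *Dazl*, *Stra8* and *Nanos2*, so the ratios of single libraries given here differ from that result for these genes. For meiotic prophase genes, among them *Smc1b*, the paper found significantly lower levels in the mutant.

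Most lists of testicular somatic cells lay at or above 0. Sertoli cell markers were above 0 in 13 of 15 with a median of 0.11, and their summed RPKM was 5522 and 5944. *Clu* was at 2593 and 2813 RPKM, and *Rhox5* and *Rhox8* were listed at 0 in both libraries. *Aard* was at 0.10. Leydig cell markers had a median of 0.19 and went both ways. *Cyp17a1* was past 1.5-fold at 0.68, whereas *Hsd3b1*, the most abundant of them, was at −0.17. Peritubular and endothelial markers had medians of 0.02 and 0.04, with *Col3a1* at 0.02, *Col1a1* at −0.05, *Cdh5* at −0.06 and *Esam* at 0.16. Macrophage markers had a median of −0.19, with 6 of 8 below 0 and *C1qa* at −0.32 and *C1qb* at −0.41. The blood cell lists differed from each other. The neutrophil list had a median of −0.79, with a summed RPKM of 33.2 and 10.7 and *S100a8*, *S100a9*, *Ngp* and *Camp*, of 7 expressed genes, past 1.5-fold. In the red cell list the median was −0.12 and the summed RPKM was 1102 and 1059. There *Slc4a1* was at −3.38, *Hbb-bt* at −1.03 and *Hba-a1* at −0.26, whereas *Hbb-bs*, the most abundant, was at 0.11. The members' median of −0.21 thus lay between those of the germ cell and the Sertoli cell lists. The part that germ cells, blood cells or any other cell type had in the lower mitotic gene values was not tested.

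**Figure D5:**
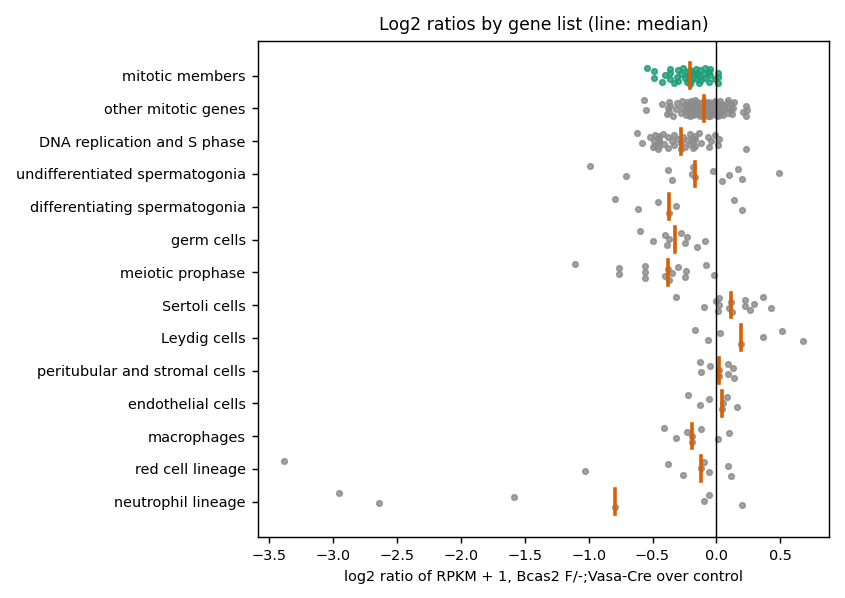
Log2 ratios of RPKM + 1 for the 44 members (green) and for the expressed genes of the other lists (grey), with the median of each list as an orange line. The members, the replication genes and the germ cell lists have medians below 0, and the Sertoli and Leydig lists above 0.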

How the data were processed

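RNA from whole testes of 9-day-old mice was sequenced, 1 library per genotype. The authors aligned read pairs to mm10 with TopHat2 2.0.9 and counted reads per gene with HTSeq. The deposited values are RPKM, for 39695 gene entries, and their gene lengths and annotation release are not given in the sources used here. Of the entries, 37692 (95.0%) were matched to GENCODE M21.

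Log2 ratios of RPKM + 1 were taken over the 14831 entries averaging at least 1 RPKM. Within a library each read adds the same step to a gene's RPKM. From these steps, library sizes of 19918750 (control) and 19331687 (mutant) reads were recovered, and a ratio of whole reads was found for 35 of the 44 members. For the other 9, and for the factor that turns a ratio into reads, the mean annotated transcript length was used, so reads are estimates. The recovery was tested on simulated data. Other pseudocounts, scalings and filters were tried.

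The members, gene lists and pairs were chosen with earlier results of these data known. The text names all 44 members, *Bcas2*, some genes that overlap or copy a member, and *Rhox5* and *Rhox8* (at 0). It also names the most abundant genes of each other list (5 each of the mitotic and replication lists, 2 of each marker list) and those past 1.5-fold. A few were chosen after their values were seen (*Nanos2*, *Pkmyt1*, *Cdc25a*, *Ska2*, *Hmmr* and those of the closing section). Splicing was not analysed here. Python 3.11.15, numpy 2.4.6, scipy 1.17.1, pandas 2.3.3, matplotlib 3.10.9 and BLAST+ 2.17.0 were used.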

Additional observations from a re-analysis of the deposited data

How the results depend on the processing

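With pseudocounts of 0.1 and 0.01, both other scalings and both other filters on mean RPKM, no member passed 1.5-fold, and the median log2 ratio of the members stayed between −0.221 and −0.181. Between 12 and 15 members were more than 1.2-fold lower. The counting intervals of the 13 lay below 0. With ratios centred on the median gene, 0 members were above 0, and with RPKM rescaled to a sum of 1000000 there were 4, because *Wee1*, *Bub3*, *Birc5* and *Tpx2* lie so close to 0 that a shift of the scale moves their sign. Of the other mitotic genes, 2 were more than 1.5-fold lower with a pseudocount of 0.1 and 2 with 0.01, and 2 were more than 1.2-fold higher with the rescaled RPKM. Of the replication genes, 2 were more than 1.5-fold lower with either pseudocount and with centred ratios, and 0 with a minimum mean RPKM of 5, which leaves out *E2f2*. With the rescaled RPKM, 1 replication gene was more than 1.2-fold higher. Apart from the loss of *E2f2* to the filter on mean RPKM, the added pseudocount and scale themselves produce these shifts. An alternative chosen after seeing the data, adding the reads of similar copies, moved *Ndc80* to −0.08 and *Plk1* to 0.04, and the difference of *Nuf2* and *Ndc80* to −0.29, with an interval that left out 0. No library could be left out and no paired analysis was possible because each genotype has 1 library. Differences between animals or preparations cannot be told apart from the genotype.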

Other observations

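A pair of further genes of the mitotic list lay near the 1.5-fold threshold, and they were chosen after their values were seen. *Cdkn3*, which encodes a phosphatase of cyclin-dependent kinases, was at 11.3 RPKM in control testes and 7.43 in the mutant, with a log2 ratio of −0.55 (95% counting interval −0.91 to −0.30). *Cenpp*, of the inner kinetochore, was at 14.5 and 9.44 RPKM, with a ratio of −0.57 (−0.88 to −0.35), compared with a median of 0.00 for the 12 CENP genes that include it.

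Some genes that load CENP-A onto centromeres were also read, chosen in the same way. *Hjurp*, which encodes the CENP-A chaperone, was at 103 and 76.4 RPKM, with a log2 ratio of −0.43 (−0.50 to −0.36). *Oip5*, a subunit of the complex that prepares the centromere for loading, was at 7.86 and 5.86 RPKM, with −0.37 (−0.73 to −0.13), and its exons overlap those of *Nusap1* over 172 bases. *Mis18a*, of the same complex, was at −0.12 with an interval of −0.33 to 0.07 that held 0. *Cenpa* itself was at −0.31.

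The transcription factors that act at late cell cycle promoters were measured too. *Mybl2*, which encodes B-MYB, was at 34.2 and 26 RPKM, a log2 ratio of −0.38 (−0.54 to −0.25). *Foxm1* was at 39.6 and 32.4 RPKM, with −0.28 (−0.41 to −0.17). Of the MuvB core, 3 genes were in the list, and the interval of each held 0. *Lin9* was at 0.13 (−0.07 to 0.35), *Lin37* at −0.14 (−0.38 to 0.08) and *Lin54* at −0.01 (−0.20 to 0.18). Together the 5 genes had a median of −0.14, with 4 of 5 below 0 (80%, against 46.3% of all genes).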
